A study of Mus musculus with 10 samples.

Results

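Apoe, Clu, Apod, Ptgds, Abca1, Abcg1 and Lrp1 are 7 genes that carry, export or take up lipids in the brain. They were selected by symbol from the deposited expression table, and each matched 1 of its 37447 genes. RNA was sequenced from microglia, the resident macrophages of the brain, which were taken from the brainstem of mice aged 6 weeks. The 4 LCM_GFP libraries came from GFP expressing microglia cut out by laser from sections of briefly fixed and frozen brainstem (replicates 1, 3 and 4 labelled female, replicate 2 male). The 3 FACS_GFP libraries came from GFP expressing microglia that were flow sorted after dissociation and a Percoll gradient (replicates 1 and 3 female, replicate 2 male). The 3 FACS_WT libraries came from wild-type male microglia sorted in the same way, which the labels give as C57BL/6. No animal is labelled as treated. The labels do not name the promoter that drives GFP or the strain of the GFP mice, and they call each library a biological replicate without saying whether animals were pooled. The comparison of laser-captured with sorted cells addresses the effect of the isolation method, which cannot be told apart from fixation and from the RNA extraction used. LCM_GFP against FACS_WT differs in genotype and sex as well, and FACS_GFP against FACS_WT compares genotypes that also differ in sex.

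Cells of the brain pass cholesterol and phospholipid to each other on small lipoproteins, because lipoproteins of the blood hardly cross into the brain. Apolipoproteins E and J lie on the surface of these particles, ATP-binding cassette transporters load them with lipid, and lipoprotein receptors take them up. Astrocytes are the main source of apolipoprotein E in the healthy brain, and microglia make it too. Apoe, Abca1 and Abcg1 are known targets of the liver X receptors, nuclear receptors that sense oxidised cholesterol.

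Of Apoe, Abca1 and Abcg1, Abca1 was the one called lower in laser-captured libraries, so the sequence before its start is shown. It is the 250 bases upstream of the RefSeq start, GRCm38.p6 chr4:53159896-53160145, minus strand, written 5′ to 3′. Capitals mark matches on either strand, in order from 5′, to CACGTG (the E-box), to GGTNA followed after 5 bases of any kind by GGTNA (the letters of the direct repeat that liver X receptors are known to bind) and to TATAAA (the TATA box).
Abca1: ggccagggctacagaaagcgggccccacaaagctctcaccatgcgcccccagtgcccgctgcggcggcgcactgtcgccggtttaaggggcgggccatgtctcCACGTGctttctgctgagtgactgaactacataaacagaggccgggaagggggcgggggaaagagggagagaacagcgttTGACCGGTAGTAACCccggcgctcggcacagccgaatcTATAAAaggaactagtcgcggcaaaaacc
The repeat lay 67 to 53 bases before the start, the E-box 147 to 142 and the TATA box 29 to 24 bases before it, and the matches did not overlap each other. Of 32851 RefSeq windows of this length, 0.621% held the repeat, 6.02% the E-box and 12.4% the TATA box. RefSeq windows were matched for 5 of the 7 genes, 7 windows in all. The windows of Apoe, Apod, Ptgds and Lrp1 held neither the repeat nor the E-box, and 1 of the 3 Apoe windows held TATAAA. These matches describe letters only.

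In the sorted groups the 7 genes fell into an abundant and a rare set. Levels are FPKM, fragments scaled to transcript length and library size, so genes can be set beside each other. In FACS_GFP, Apoe averaged 276 ± 27.1 FPKM, Lrp1 196 ± 2.97, Abca1 82.0 ± 1.79 and Abcg1 12.6 ± 1.60 FPKM (SD, n = 3). In FACS_WT, Apoe averaged 425 ± 155 FPKM, Lrp1 235 ± 46.8, Abca1 89.1 ± 14.9 and Abcg1 13.8 ± 1.12 FPKM (SD, n = 3). Neighbours in this order did not overlap in either group, and the order Apoe, Lrp1, Abca1, Abcg1 held in all 6 sorted libraries. Apod, Clu and Ptgds lay below Abcg1 in all 6, at 2.08 FPKM or less, and only in FACS_WT did Ptgds separate from Clu. In LCM_GFP the order of group means was Ptgds, Apod, Apoe, Clu, Lrp1, Abca1 and Abcg1, and every pair of neighbours overlapped except Lrp1 and Abca1. The 7 genes together took 0.166% to 0.910% of the summed FPKM of an LCM_GFP library, 0.109% to 0.130% in FACS_GFP and 0.132% to 0.214% in FACS_WT.

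**Figure D1:**
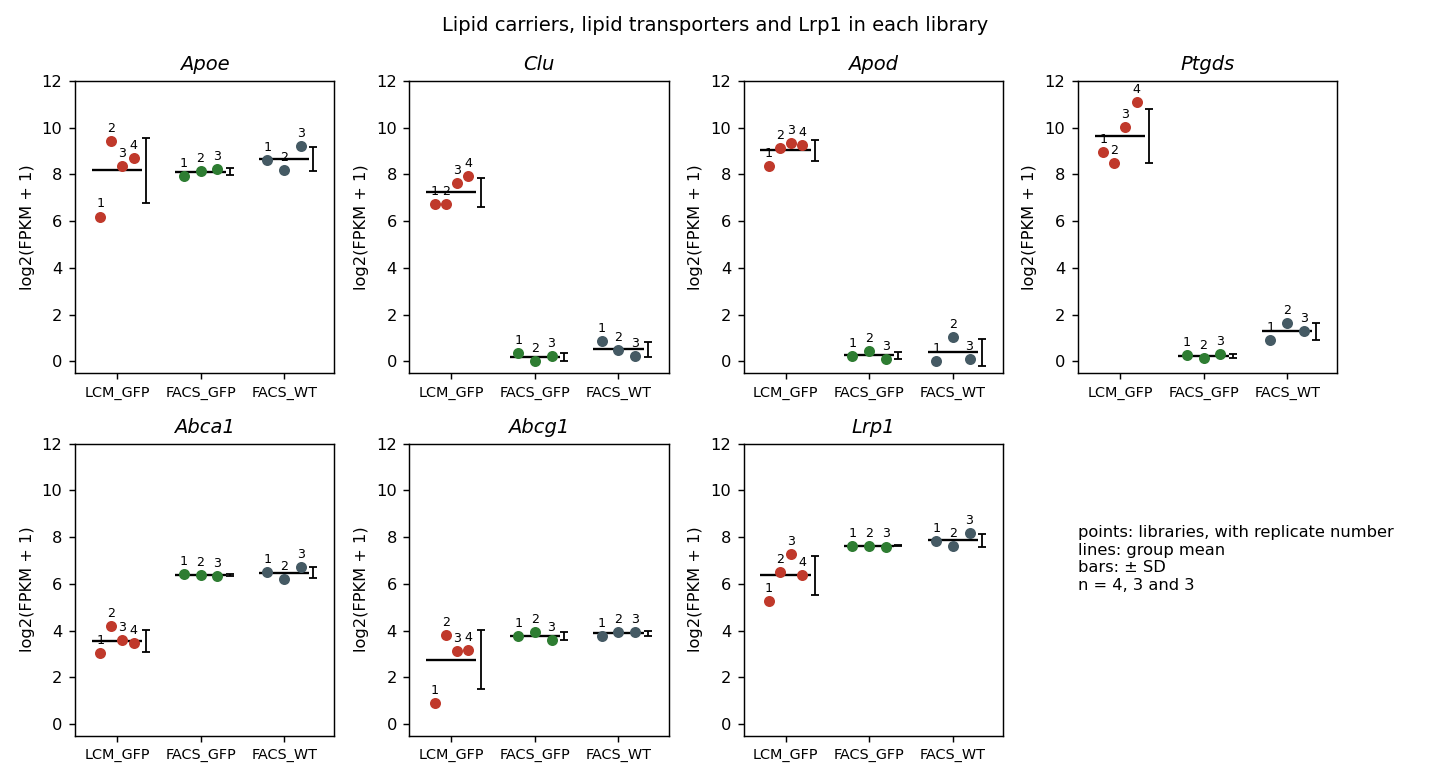
Each panel plots 1 gene as log2(FPKM + 1) in every library, with the replicate number beside the point, the group mean as a line and ± SD as a bar (n = 4, 3 and 3). Clu, Apod and Ptgds are high in all 4 LCM_GFP libraries and near 0 in the sorted ones, Abca1 is lower in all 4 LCM_GFP libraries, and Apoe overlaps between the groups.

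The libraries differ in ways that bear on these values. Summed FPKM of 16 microglia markers was 2472 to 5853 in LCM_GFP, 8255 to 10113 in FACS_GFP and 9567 to 12048 in FACS_WT. LCM_GFP 1 and LCM_GFP 3 stood apart by embryonic globin Hbb-y, at 902 and 439 FPKM, against 0.102 and 0.0666 FPKM in LCM_GFP 2 and 4 and 0 in the sorted libraries. The proliferation gene Mki67 was at 202, 12.4, 46.6 and 0.0785 FPKM in LCM_GFP 1 to 4 and between 0.835 and 4.45 FPKM in the sorted libraries. LCM_GFP 1 and 3 are labelled female but held the Y-linked Kdm5d at 3.26 and 5.96 FPKM, against 36.5 FPKM in LCM_GFP 2, which is labelled male. The Y-linked Uty was at 15.6 FPKM in LCM_GFP 1, as high as in LCM_GFP 2 (15.0 FPKM), but at 0.286 FPKM in LCM_GFP 3. The Y-linked Ddx3y was at 0.198 and 0 FPKM in LCM_GFP 1 and 3, against 4.41 FPKM in LCM_GFP 2. Xist was at 14.0 and 32.8 FPKM in LCM_GFP 1 and 3, against 0.0398 FPKM in LCM_GFP 2. FACS_GFP 2 is labelled male but held Xist at 3.91 FPKM, beside Kdm5d at 23.0 FPKM and Uty at 28.5 FPKM. Whether animals were pooled or mislabelled is not known, so sex as given in the labels is uncertain for these libraries. Changes were therefore also computed with LCM_GFP 2 and 4 alone. On the log2(FPKM + 1) scale, the SD between replicates had a median over genes of 0.96 in LCM_GFP, 0.13 in FACS_GFP and 0.17 in FACS_WT. In bulk samples, fewer cells of a type and less RNA per cell cannot be told apart.

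In the tests, a gene is called where limma's p, adjusted over all genes tested by the Benjamini-Hochberg method, is under 0.05. Of all genes, 32.1% were called in LCM_GFP against FACS_GFP (1681 higher, 12.5%, and 2624 lower, 19.6%) and 31.4% in LCM_GFP against FACS_WT (1649 higher, 12.3%, and 2558 lower, 19.1%). All genes tested had a median log2 change of -0.60 and -0.59 in these comparisons. Scaled by the median ratio instead, it was -0.13 and -0.11, and 1878 genes were called higher and 1268 lower against FACS_GFP, 1853 higher and 1264 lower against FACS_WT. Of the 7 genes, Apod, Clu and Ptgds were called higher in LCM_GFP against either sorted group. Abca1 was called lower against either, and Lrp1 was called lower against FACS_WT. All 7 passed the filter on low values (at least 1 FPKM in at least 3 libraries), but Apod, Clu and Ptgds passed it through the LCM_GFP libraries, where they are high, so that their count supports nothing by itself.

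**Figure D2:**
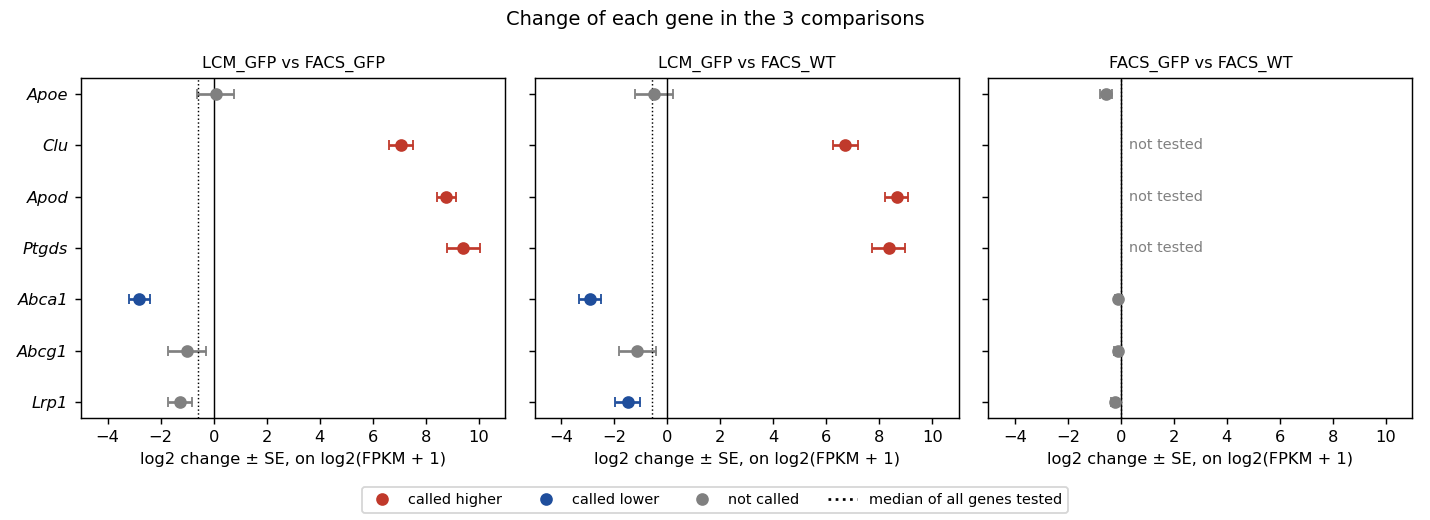
The log2 change of each gene is plotted with its SE for the 3 comparisons, on the log2(FPKM + 1) scale, with the median of all genes tested as a dotted line. Apod, Clu and Ptgds lie between 6.73 and 9.42 in the comparisons of LCM_GFP with sorted cells, Abca1 lies at -2.81 and -2.91, and the 4 genes tested between the sorted groups lie between -0.56 and -0.11.

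Of the carriers, Apoe encodes apolipoprotein E, the main lipid-binding protein of brain lipoproteins (ENSMUSG00000002985, mm9 chr7:20281457-20284515). It stood at 72.5, 699, 332 and 415 FPKM in LCM_GFP 1 to 4, at 245, 286 and 297 FPKM in FACS_GFP and at 393, 289 and 593 FPKM in FACS_WT. LCM_GFP 1 was the lowest and LCM_GFP 2 the highest of the 10 libraries, and all groups overlapped. Apoe exceeded 92.7% of the genes above 0 in LCM_GFP 1 and at least 98.7% of them in each of the other 9 libraries. Its log2 change was 0.07 (SE 0.69) in LCM_GFP against FACS_GFP, with adjusted p = 0.943 in limma. Against FACS_WT it was -0.49 (SE 0.71), with adjusted p = 0.625 in limma. With LCM_GFP 2 and 4 alone, Apoe was called higher than in FACS_GFP, by 0.97 (limma, adjusted p = 0.0446), and differed from FACS_WT by 0.40 (adjusted p = 0.458). Of 19 alternatives against FACS_GFP, this call arose in 2, both with LCM_GFP 2 and 4 alone. With the filter in at least 2 libraries, that setting called more genes in all than the main fit. The change against FACS_GFP was -0.35 without LCM_GFP 2, -0.10 without LCM_GFP 4 and -0.01 without FACS_GFP 1, and the change against FACS_WT was 0.17 without LCM_GFP 1.

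Clu encodes clusterin, also called apolipoprotein J, a secreted chaperone that binds lipid and is made in the brain mainly by astrocytes and neurons (ENSMUSG00000022037, mm9 chr14:66587319-66600385). It stood at 104, 104, 195 and 242 FPKM in LCM_GFP 1 to 4, at 0.260, 0 and 0.163 FPKM in FACS_GFP and at 0.805, 0.392 and 0.168 FPKM in FACS_WT. Every LCM_GFP library lay more than 100 FPKM above every sorted library. The log2 change was 7.06 (SE 0.46) against FACS_GFP, with adjusted p = 7.99e-05 in limma. Against FACS_WT it was 6.73 (SE 0.47), with adjusted p = 0.000113 in limma.

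Apod encodes apolipoprotein D, a lipocalin that binds arachidonic acid and other small lipids and is abundant in oligodendrocytes (ENSMUSG00000022548, mm9 chr16:31296277-31314894). It stood at 332, 559, 652 and 620 FPKM in LCM_GFP 1 to 4, at 0.152, 0.348 and 0.0783 FPKM in FACS_GFP and at 0, 1.07 and 0.0656 FPKM in FACS_WT. It varied least of the 4 carriers in LCM_GFP, where the highest library was 1.96 times the lowest. The log2 change was 8.79 (SE 0.37) against FACS_GFP, with adjusted p = 1.49e-05 in limma. Against FACS_WT it was 8.66 (SE 0.43), with adjusted p = 2.75e-05 in limma.

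Ptgds encodes lipocalin-type prostaglandin D synthase, which carries retinoids and other lipids in cerebrospinal fluid and is made by oligodendrocytes, leptomeningeal cells and choroid plexus (ENSMUSG00000015090, mm9 chr2:25322228-25325566). It stood at 494, 360, 1043 and 2205 FPKM in LCM_GFP 1 to 4, at 0.198, 0.0907 and 0.226 FPKM in FACS_GFP and at 0.889, 2.08 and 1.47 FPKM in FACS_WT. In LCM_GFP 4 it was the gene of rank 5 by FPKM, and its highest LCM_GFP library was 6.12 times its lowest. The log2 change was 9.42 (SE 0.62) against FACS_GFP, with adjusted p = 8.95e-05 in limma. Against FACS_WT it was 8.37 (SE 0.62), with adjusted p = 0.000156 in limma. With LCM_GFP 2 and 4 alone and the filter in at least 2 libraries, Clu, Apod and Ptgds were called higher than in FACS_GFP by 7.14, 8.96 and 9.58 and than in FACS_WT by 6.80, 8.82 and 8.52 on the log2 scale.

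Markers of several other brain cells were also higher in LCM_GFP than in the sorted groups. Summed FPKM of 10 oligodendrocyte markers was 2641 to 7553 in LCM_GFP, 21.2 to 26.5 in FACS_GFP and 23.5 to 32.8 in FACS_WT. The sum of 10 astrocyte markers was 453 to 892 in LCM_GFP, 29.7 to 33.2 in FACS_GFP and 21.6 to 25.9 in FACS_WT, and that of 10 neuron markers was 888 to 2510 in LCM_GFP, 2.84 to 10.2 in FACS_GFP and 2.00 to 2.37 in FACS_WT. For 10 leptomeningeal, fibroblast and pericyte markers it was 90.1 to 564 in LCM_GFP, 0.166 to 0.477 in FACS_GFP and 0.449 to 1.66 in FACS_WT. For 8 endothelial markers it was 119 to 417 in LCM_GFP, 63.4 to 73.6 in FACS_GFP and 63.9 to 75.6 in FACS_WT. Within LCM_GFP the order of the libraries differed between lists. In LCM_GFP 1 to 4 the oligodendrocyte sum was 2641, 7553, 4722 and 4317 FPKM and the astrocyte sum 453, 733, 552 and 892 FPKM. The neuron sum was 888, 1563, 2028 and 2510 FPKM, the leptomeningeal sum 564, 90.1, 107 and 209 FPKM, and the endothelial sum 383, 119, 193 and 417 FPKM. In each sorted library, 6 of the 10 oligodendrocyte markers, 8 or 9 of the astrocyte, 8 or 9 of the neuron and 9 or 10 of the leptomeningeal markers were below 1 FPKM. Against FACS_GFP, 9 of 10 oligodendrocyte, 8 of 10 astrocyte, 9 of 10 neuron, 5 of 6 tested leptomeningeal and 6 of 8 endothelial markers were called higher in LCM_GFP. Of these, 5 oligodendrocyte, 7 astrocyte, 7 neuron, 5 leptomeningeal and 6 endothelial markers were below 1 FPKM in every FACS_GFP library and passed the filter through LCM_GFP, so the counts support nothing by themselves. The part of these cells in the levels of Clu, Apod and Ptgds was not tested. For ependyma and choroid plexus, the summed FPKM of 8 markers was 1.43 to 26.6 FPKM in LCM_GFP, 6.33 to 7.76 in FACS_GFP and 8.63 to 47.2 in FACS_WT. Of their 2 tested markers against FACS_GFP, 1 was called higher in LCM_GFP (Foxj1, a transcription factor of cells with motile cilia) and 0 lower. Foxj1 was at 1.40, 12.9, 3.52 and 6.28 FPKM in LCM_GFP 1 to 4 and at most 0.0133 FPKM in FACS_GFP. Ttr, the main transcript of choroid plexus, was listed at 0 in LCM_GFP 1, 3 and 4 but not in LCM_GFP 2, where the 8 markers summed to 23.2 FPKM. It was not called against FACS_GFP (-2.21, adjusted p = 0.0748 in limma). The sum of 8 perivascular macrophage markers was 2.26 to 19.4 FPKM in LCM_GFP, 24.3 to 52.2 in FACS_GFP and 31.8 to 37.9 in FACS_WT. Of the 7 tested against FACS_GFP, 0 were called higher and 2 lower in LCM_GFP.

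**Figure D3:**
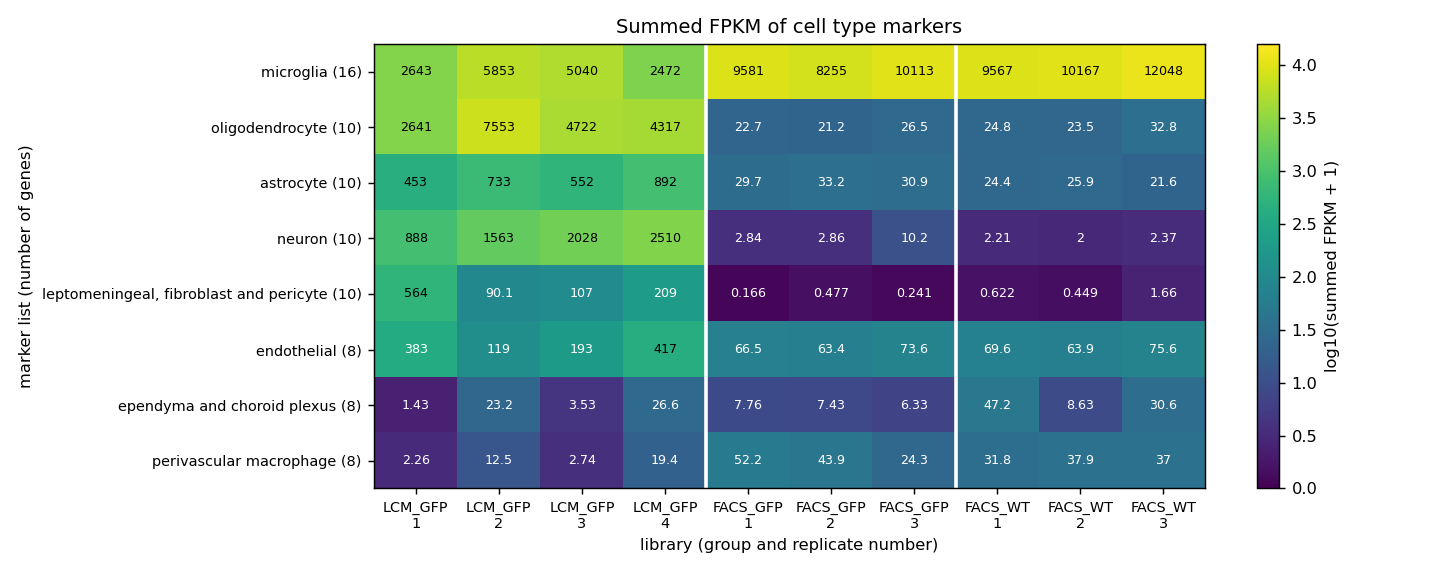
Summed FPKM of 8 marker lists is written in each cell for each library, and the colour gives log10(summed FPKM + 1). The oligodendrocyte, astrocyte, neuron and leptomeningeal rows are high in the 4 LCM_GFP libraries, the microglia row is lower there, and the ependyma and choroid plexus row overlaps between methods.

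Among the exporters, Abca1 encodes the transporter that moves cholesterol and phospholipid onto newly made apolipoprotein E (ENSMUSG00000015243, mm9 chr4:53043658-53172767). It stood at 7.25, 17.3, 10.9 and 9.99 FPKM in LCM_GFP 1 to 4, at 83.9, 81.7 and 80.4 FPKM in FACS_GFP and at 89.7, 73.9 and 104 FPKM in FACS_WT. The highest LCM_GFP library lay far below the lowest sorted library. The log2 change was -2.81 (SE 0.39) against FACS_GFP, with adjusted p = 0.00145 in limma. Against FACS_WT it was -2.91 (SE 0.41), with adjusted p = 0.00146 in limma. Relative to the median of all genes, the changes were -2.21 and -2.33. With LCM_GFP 2 and 4 alone the changes were -2.55 and -2.65, both called.

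Abcg1 encodes a transporter that adds cholesterol to lipoproteins already holding lipid (ENSMUSG00000024030, mm9 chr17:31194642-31252722). It stood at 0.881, 12.96, 7.60 and 8.08 FPKM in LCM_GFP 1 to 4, at 12.4, 14.3 and 11.1 FPKM in FACS_GFP and at 12.5, 14.4 and 14.5 FPKM in FACS_WT. LCM_GFP 1 was far below the rest, and LCM_GFP 2 lay within the range of the sorted libraries. The log2 change was -1.01 (SE 0.70) against FACS_GFP, with adjusted p = 0.299 in limma. Against FACS_WT it was -1.13 (SE 0.70), with adjusted p = 0.246 in limma. With LCM_GFP 2 and 4 alone it was -0.26 and -0.39, neither called.

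The genes were also set against each other within each library, which removes the scaling of the library. Abca1 was 8.23, 1.34, 1.44 and 1.24 times Abcg1 in LCM_GFP 1 to 4, 6.76, 5.73 and 7.26 times in FACS_GFP and 7.17, 5.14 and 7.15 times in FACS_WT. LCM_GFP 2, 3 and 4 lay below all sorted libraries and LCM_GFP 1 above them, with an exact two-sided permutation p of 0.229 against either sorted group. The ratio in LCM_GFP 1 rests on Abcg1 at 0.881 FPKM, and values under 1 FPKM are imprecise to an unknown degree. Apoe was 9.99, 40.4, 30.4 and 41.5 times Abca1 in LCM_GFP 1 to 4, 2.92, 3.51 and 3.69 times in FACS_GFP and 4.38, 3.90 and 5.72 times in FACS_WT. All LCM_GFP libraries lay above all sorted ones, with an exact permutation p of 0.0571, the smallest that 4 libraries against 3 allow, and 0.24 after adjustment over the 21 relations computed.

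Lrp1 encodes a large lipoprotein receptor that takes up apolipoprotein E and many other ligands (ENSMUSG00000040249, mm9 chr10:126975216-127058204). It stood at 37.5, 90.6, 156 and 82.3 FPKM in LCM_GFP 1 to 4, at 197, 198 and 193 FPKM in FACS_GFP and at 225, 194 and 286 FPKM in FACS_WT. All LCM_GFP libraries lay below all sorted libraries. Of all genes tested, 48.2% did not overlap between LCM_GFP and FACS_GFP, and 46.5% between LCM_GFP and FACS_WT. The log2 change was -1.26 (SE 0.46) against FACS_GFP, with adjusted p = 0.0696 in limma, and -1.50 (SE 0.48) against FACS_WT, with adjusted p = 0.0441 in limma. Relative to the median of all genes these were -0.66 and -0.91. Against FACS_GFP, Lrp1 was called lower with LCM_GFP 2 and 4 alone (-1.17), without LCM_GFP 1 (-0.89) and without LCM_GFP 3 (-1.57). Against FACS_WT the call ended without LCM_GFP 2, LCM_GFP 4 or any single FACS_WT library, with limma's adjusted p between 0.0621 and 0.165, under median ratio scaling (-0.96, adjusted p = 0.161) and with sex as covariate (adjusted p = 0.280 in limma). With that covariate 1760 genes were called in all, against 4207 without it.

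Because the sum of the microglia markers was also lower in LCM_GFP, the 4 genes that sorted microglia hold were set against it. The part of other brain cells in the LCM_GFP levels of these 4 genes was not tested, so the shares are not levels per microglial cell. Of the 16 markers, 10 were called lower against FACS_GFP, but 2 with median ratio scaling and 1 without any one of the FACS_GFP libraries. Against FACS_WT, 14 were called lower, but 3 with median ratio scaling or without any one of the FACS_WT libraries, and 1 with sex as covariate. Of all genes, 19.6% were called lower against FACS_GFP and 19.1% against FACS_WT in the main fits. Calls over all genes fell in each of the other settings too, so the loss is not particular to the markers. As a share of the summed FPKM of these markers, Abca1 was 0.274%, 0.296%, 0.217% and 0.404% in LCM_GFP 1 to 4, against 0.795% to 0.989% in FACS_GFP and 0.727% to 0.938% in FACS_WT. It remained below every sorted library, with an exact permutation p of 0.0571, the smallest the design allows, against either group (0.24 adjusted over 21 relations). Lrp1 was 1.42%, 1.55%, 3.10% and 3.33% of the marker sum in LCM_GFP 1 to 4, against 1.91% to 2.40% in FACS_GFP and 1.90% to 2.37% in FACS_WT, so its groups overlapped on this scale. Abcg1 overlapped too, at 0.0333%, 0.221%, 0.151% and 0.327% in LCM_GFP 1 to 4, against 0.110% to 0.173% in FACS_GFP and 0.120% to 0.141% in FACS_WT. Apoe was 2.74%, 11.9%, 6.59% and 16.8% of the marker sum in LCM_GFP 1 to 4, against 2.56% to 3.47% in FACS_GFP and 2.84% to 4.92% in FACS_WT. LCM_GFP 2, 3 and 4 lay above all sorted libraries for Apoe and LCM_GFP 1 among them, with an exact permutation p of 0.171 against FACS_GFP and 0.286 against FACS_WT.

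**Figure D4:**
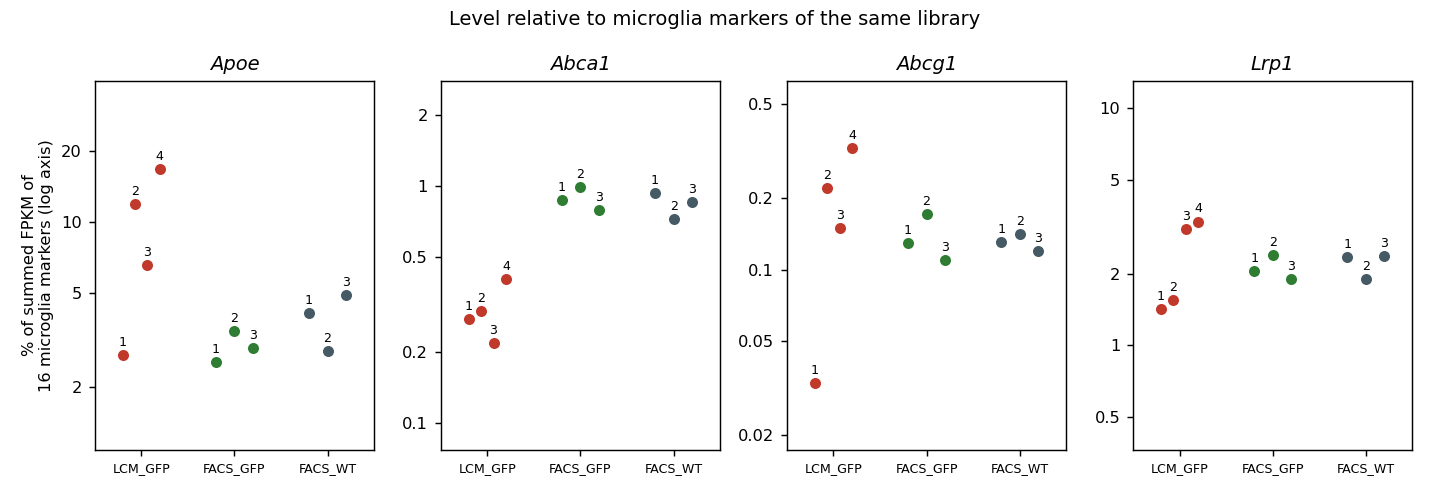
FPKM of 4 genes as a percentage of the summed FPKM of 16 microglia markers of the same library, on log axes of equal span, with replicate numbers beside the points. Abca1 lies at 0.217% to 0.404% in LCM_GFP, below all sorted libraries, while Abcg1 and Lrp1 overlap between the groups.

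The authors' deposited table of group comparisons, in the layout of Cuffdiff, gave the same 4 genes at its q under 0.05 in LCM_GFP against FACS_GFP, where 5.13% of its tested genes passed. Its log2 ratios of LCM_GFP over FACS_GFP in the authors' deposited table were 12.27 for Ptgds, 10.91 for Apod, 10.24 for Clu and -3.52 for Abca1. For Apoe, Abcg1 and Lrp1 the authors' deposited table gave 0.14, -1.15 and -1.45, each with q = 1. Against FACS_WT, where 5.01% of genes passed and the column runs FACS_WT over LCM_GFP, the authors' deposited table also passed Ptgds (-9.20), Apod (-10.21), Clu (-8.47) and Abca1 (3.62), and not Lrp1 (1.63, q = 1).

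None of the 7 genes was called between FACS_GFP and FACS_WT, where limma called 0.11% of all genes (13 of 11814) and 13.1% had an unadjusted p under 0.05. Apoe, Abca1, Abcg1 and Lrp1 were tested there, and Apod, Clu and Ptgds did not pass the filter. Of the 4 tested, Apoe alone had an unadjusted p under 0.05 (log2 change -0.56, SE 0.24, adjusted p = 0.367 in limma), with an exact permutation p of 0.2. Lrp1 had a log2 change of -0.24, Abcg1 of -0.13 and Abca1 of -0.11, with limma's adjusted p from 0.509 to 0.742. Apoe relative to Abca1 did not overlap between the sorted groups, at 2.92 to 3.69 times in FACS_GFP and 3.90 to 5.72 times in FACS_WT (exact permutation p of 0.1, the smallest that 3 against 3 allow, and 0.343 adjusted over 21 relations). Ptgds was lower in all 3 FACS_GFP libraries than in any FACS_WT library, with exact permutation p = 0.1. Tested without the filter, its log2 change was -1.05 (SE 0.19), with adjusted p = 0.436 in limma. Of genes above 0 in these libraries, 7.37% lay lower in FACS_GFP without overlap. The authors' deposited table gave Ptgds a log2 ratio of FACS_WT over FACS_GFP of 3.06, with q = 0.522, where 0.321% of genes passed. Ttr was at 6.31 to 7.68 FPKM in FACS_GFP and at 47.0, 8.60 and 30.5 FPKM in FACS_WT 1 to 3. It was not called between these groups (adjusted p = 0.357 in limma). The source of Ptgds in the sorted libraries was not tested.

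The other genes of these pathways were taken from 6 lists of 126 genes. In LCM_GFP against FACS_GFP, 19 of them were called higher and 16 lower. Calls in these lists stand against the same background of 12.5% higher and 19.6% lower. Of the 19, 10 were below 1 FPKM in every FACS_GFP library and passed the filter through LCM_GFP, so the count of higher calls supports nothing by itself. Without FACS_GFP 1, 2 or 3 the calls became 7 higher and 1 lower, 8 higher and 1 lower, and 7 higher and 0 lower. Calls over all genes, 4305 in the main fit, fell steeply in these settings too, so the loss is not particular to the lists. Of the 35 calls, 7 kept their call under every alternative in which they were tested (Fabp5, Fabp7, Dbi, Dab1, Lrp1b, Abca2 and Lcat), and the other 28 lost it under 2 to 10 alternatives. With median ratio scaling, the lower calls became 2 of the receptors, 3 of the storage genes, 1 of the prostaglandin genes and 0 of the carriers, ABC transporters and regulators. Lower calls over all genes fell with that scaling as well. With LCM_GFP 2 and 4 alone and the filter in at least 2 libraries, 5 carriers, 9 receptors, 4 ABC transporters, 4 regulators, 4 storage genes and 0 prostaglandin genes were called higher, and 2, 8, 5, 1, 6 and 4 of these lists lower. Of 89 list genes tested in that setting, 26 were called higher and 26 lower. It called more genes in all than the main fit, so 12.5% and 19.6% are not its background. Its own shares of all genes called higher and lower are not given here, so these counts support nothing by themselves. Between FACS_GFP and FACS_WT, 74 of the 126 were tested and 0 were called.

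Of 26 other apolipoproteins and lipid carriers, 12 were tested against FACS_GFP, 4 were called higher in LCM_GFP and 0 lower, with a median log2 change of 0.77. Fabp7, the brain fatty acid binding protein of astrocytes and radial glia, stood at 34.5, 36.6, 17.0 and 30.1 FPKM in LCM_GFP 1 to 4 and at 0.0586 to 0.240 FPKM in FACS_GFP, and was listed at 0 in FACS_WT (log2 change 4.69 against FACS_GFP, adjusted p = 0.000341 in limma). Dbi, the acyl-CoA binding protein, was the most abundant of the list, at 970, 521, 356 and 639 FPKM in LCM_GFP 1 to 4 and 88.3 to 115 FPKM in FACS_GFP (2.58, adjusted p = 0.00166 in limma). Fabp5, another fatty acid binding protein, and the phospholipid transfer protein Pltp were the other two. Apoc1, which lies beside Apoe in the genome, was at 0, 14.7, 35.4 and 36.4 FPKM in LCM_GFP 1 to 4 and 1.98 to 4.77 FPKM in FACS_GFP, and was not called (1.59, adjusted p = 0.346 in limma). Against FACS_WT, 4 of 13 tested were called higher and 3 lower.

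Of 30 other lipoprotein and scavenger receptors, 26 were tested against FACS_GFP, 8 were called higher and 6 lower, with a median log2 change of -0.31. Vldlr, at 2.21 to 15.3 FPKM in LCM_GFP, and Lrp8, at 3.27 to 29.1 FPKM, are the reelin receptors, and both were below 1 FPKM in every sorted library. Dab1, the adaptor that passes on the reelin signal, had the largest rise of the list (5.14, adjusted p = 0.000761 in limma). Sorl1, a sorting receptor for the amyloid precursor protein, was at 11.3 to 46.0 FPKM in LCM_GFP and 4.45 to 5.97 FPKM in FACS_GFP (2.20, adjusted p = 0.0165 in limma). Lrp1b, Sorcs1 and Sorcs2 were also called higher. Called lower were Lrp5, the scavenger receptors Scarb1, Scarb2 and Msr1, and 2 more genes. Trem2, a lipid-sensing receptor of microglia that binds apolipoprotein E, was at 51.8, 126, 230 and 100 FPKM in LCM_GFP 1 to 4 and 320 to 553 FPKM in FACS_GFP (-1.90, adjusted p = 0.0224 in limma). Mylip, a liver X receptor target that encodes a ubiquitin ligase for lipoprotein receptors, was at 5.15, 11.01, 29.6 and 20.6 FPKM in LCM_GFP 1 to 4 and 67.6 to 78.7 FPKM in FACS_GFP (-2.34, adjusted p = 0.0175 in limma).

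Of 18 other ABC lipid transporters, 13 were tested against FACS_GFP, 3 were called higher (Abca2, Abca5 and Abca8b) and 2 lower (Abca9 and Abcb4), with a median log2 change of -0.56. Abca2, an endolysosomal transporter rich in oligodendrocytes, stood at 482, 320, 413 and 518 FPKM in LCM_GFP 1 to 4 and 29.3 to 36.2 FPKM in FACS_GFP (3.66, adjusted p = 0.000189 in limma). Abcb4, a phosphatidylcholine exporter, was at 0, 0.624, 5.86 and 0.772 FPKM in LCM_GFP 1 to 4 and 10.4 to 11.3 FPKM in FACS_GFP (-2.50, adjusted p = 0.0247 in limma). Abca7, the nearest relative of Abca1, was at 3.31 to 8.38 FPKM in LCM_GFP and 12.4 to 12.95 FPKM in FACS_GFP, and was not called (-1.08, adjusted p = 0.0905 in limma). Abcg4, the nearest relative of Abcg1, was at 0.426 to 15.5 FPKM in LCM_GFP and below 0.09 FPKM in FACS_GFP (2.01, adjusted p = 0.066 in limma).

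Of 16 liver X receptor, RXR and SREBP regulators, 12 were tested against FACS_GFP, 2 were called higher (Insig1 and Nr1d1) and 1 lower (Rxrb), with a median log2 change of -0.35. Nr1h2, which encodes LXR beta, stood at 0.926, 37.4, 29.1 and 17.3 FPKM in LCM_GFP 1 to 4 and 48.4 to 54.6 FPKM in FACS_GFP, with no overlap, and was not called (-1.89, adjusted p = 0.17 in limma). Nr1h3, which encodes LXR alpha, was not tested, at 7.92 FPKM in LCM_GFP 1, at most 0.0418 FPKM in the other LCM_GFP libraries and 0.270 to 0.625 FPKM in FACS_GFP. Rxrb, a partner of the liver X receptors, was at 6.09 to 24.9 FPKM in LCM_GFP and 42.7 to 67.8 FPKM in FACS_GFP (-1.89, adjusted p = 0.0269 in limma). Insig1, which holds the sterol sensor of SREBP in the endoplasmic reticulum, was at 22.2 to 44.2 FPKM in LCM_GFP and 7.50 to 8.05 FPKM in FACS_GFP (1.94, adjusted p = 0.0086 in limma). Nr1d1, a heme-sensing nuclear receptor of the circadian clock, was at 6.66, 42.2, 41.9 and 88.7 FPKM in LCM_GFP 1 to 4 and 3.30 to 6.47 FPKM in FACS_GFP (2.597, adjusted p = 0.0404 in limma). The corepressor Ncor1, the most abundant of the list, was not called (-0.41, adjusted p = 0.39 in limma).

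Of 17 genes of lipid storage, hydrolysis and cholesterol turnover, 15 were tested against FACS_GFP, 2 were called higher (Lcat and Osbpl1a) and 3 lower (Lipa, Plin2 and Lpcat3), with a median log2 change of -0.91. Lcat, the enzyme that esterifies cholesterol on lipoproteins and is made in the brain by astrocytes, stood at 39.5, 54.1, 13.2 and 54.6 FPKM in LCM_GFP 1 to 4 and 1.60 to 2.15 FPKM in FACS_GFP (3.68, adjusted p = 0.00247 in limma). Plin2, a coat protein of lipid droplets, was at 3.52, 7.83, 14.7 and 9.98 FPKM in LCM_GFP 1 to 4 and 34.9 to 47.6 FPKM in FACS_GFP (-2.17, adjusted p = 0.0142 in limma). Lpcat3, which remodels phospholipids and is a liver X receptor target, was at 107, 90.0, 54.5 and 47.5 FPKM in LCM_GFP 1 to 4 and 241 to 284 FPKM in FACS_GFP (-1.88, adjusted p = 0.00649 in limma). Lpl, lipoprotein lipase, ranged from 0.0861 to 23.9 FPKM in LCM_GFP and from 15.96 to 18.99 FPKM in FACS_GFP, and was not called (-2.30, adjusted p = 0.135 in limma).

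Of 19 genes of prostaglandin synthesis and its receptors, 8 were tested against FACS_GFP, 0 were called higher and 4 lower (Ptgs1, Tbxas1, Hpgd and Pla2g4a), with a median log2 change of -1.51. Without FACS_GFP 1, 2 or 3 the lower calls became 0, 1 and 0, while calls over all genes fell steeply too. Of the genes called lower, Pla2g4a and Ptgs1 act upstream of the step that Ptgds takes and Tbxas1 beside it, while Hpgd breaks down finished prostaglandins. Ptgs1, cyclooxygenase 1, stood at 156, 270, 195 and 117 FPKM in LCM_GFP 1 to 4 and 452 to 606 FPKM in FACS_GFP (-1.60, adjusted p = 0.00944 in limma). Tbxas1, thromboxane synthase, was at 2.21, 57.4, 19.4 and 6.11 FPKM in LCM_GFP 1 to 4 and 202 to 227 FPKM in FACS_GFP (-4.05, adjusted p = 0.012 in limma). Hpgds, the hematopoietic prostaglandin D synthase that makes the same product as Ptgds, was at 3.59, 349, 269 and 189 FPKM in LCM_GFP 1 to 4 and 230 to 275 FPKM in FACS_GFP, and was not called (-1.43, adjusted p = 0.455 in limma). Ptgds exceeded Hpgds in each LCM_GFP library, and Hpgds exceeded Ptgds in each sorted library. Ptgs2, cyclooxygenase 2, was at 0.190 FPKM or less in all 10 libraries.

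**Figure D5:**
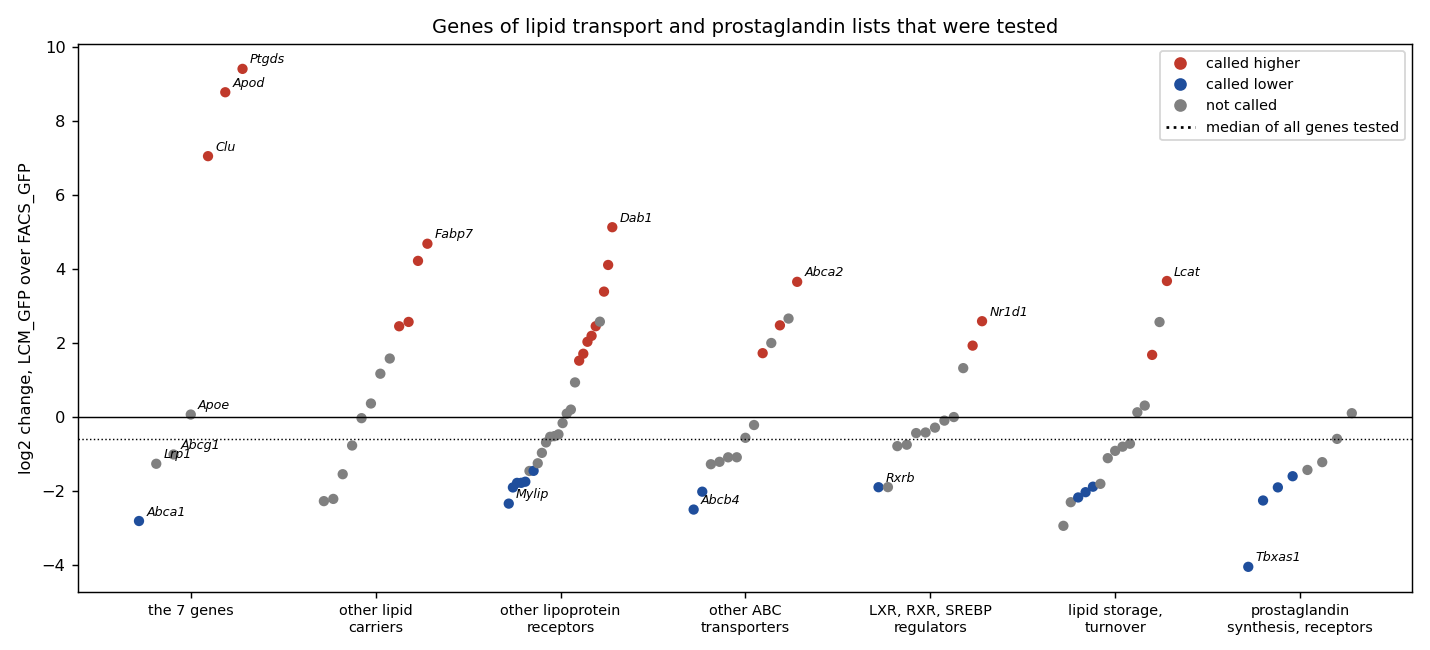
Each point is the log2 change of 1 tested gene in LCM_GFP over FACS_GFP, ordered within its list, with called genes in colour and the median of all genes tested as a dotted line. Ptgds at 9.42, Apod at 8.79 and Clu at 7.06 lie above every gene of the other 6 lists. Of the genes of those lists, Tbxas1 at -4.05 lies lowest.

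To place the 7 genes among all others, each was compared with 9878 genes by the root mean square difference of their log2(FPKM + 1) profiles over the 10 libraries, each centred on its own mean, so that 0 means the same profile. Near to Apod were the myelin gene Mbp (0.37) and the sodium pump subunit Atp1b2 (0.39). Mbp was at 1218, 2379, 1893 and 1570 FPKM in LCM_GFP 1 to 4 and at 3.60 FPKM or less in sorted libraries. Nearest to Clu were the kinesin Kif1a (0.26), Nrsn2 (0.28) and the granule protein Scg2 (0.29), all of them genes of neurons. Ptgds had no gene as near, the closest being the neuropeptide Sst (0.73), the G protein subunit Gnao1 (0.77) and Atp1b2 (0.78). Apoe lay nearest to Pcid2 (0.24), Polr2c (0.29) and Tgfa (0.30). Nearest to Abca1 were Eef2k (0.14), Slamf8 (0.16) and Eif2ak2 (0.18), each lower in all LCM_GFP libraries than in any sorted one. Nearest to Abcg1 were Dis3l2 (0.13), Opa1 (0.15) and Mrpl55 (0.17), and nearest to Lrp1 were Taok3 (0.13), Ik (0.14) and Dip2b (0.16). Among the 7 genes themselves, Abcg1 and Lrp1 (0.48), Apoe and Abcg1 (0.53) and Apod and Ptgds (0.69) were the nearest pairs, and Ptgds and Abca1 (5.82) the farthest. These distances describe 10 libraries that share their group structure and carry no test.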

How the data were processed

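RNA of 10 libraries was amplified with the Ovation RNA-Seq method and sequenced on Illumina instruments, per the labels' protocols. The mouse build was mm9, and the tools named are Cufflinks 2.0.2, Bowtie2 2.0.0, TopHat2 2.0.4 and CASAVA 1.8.2, per the submitters' processing notes. The annotation release is not given in the sources used here. The deposited expression table holds FPKM per gene and library, per the file headers. A deposited table in Cuffdiff layout holds the authors' log2 ratios with p-values and q-values, per the file headers. No counts are given and low values did not resolve into whole fragments, so depth is unknown and no counting intervals were made. A value of 0 can be a failed estimate, since 13661 genes were at 0 in every library.

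A gene was tested where 3 or more of the compared libraries reached 1 FPKM, on log2(FPKM + 1), which understates changes of low genes, with limma 3.58.1 in R 4.3.3 (trend and robust moderation, statmod 1.5.0), two-sided, with only the 2 groups compared in the fit. P-values were adjusted by Benjamini-Hochberg over all genes tested. Ratios were tested by exact two-sided permutation with scipy 1.17.1, in Python 3.11.15 with pandas 2.3.3 and numpy 2.4.6, and figures were drawn with matplotlib 3.10.9. P-values measure the spread between these libraries. In simulated data, the test recovered 73.7% of genes changed by 4 on the log2 scale in LCM_GFP against FACS_GFP (13403 genes). It recovered 71% against FACS_WT (13415 genes) and 100% between the sorted groups (11814 genes), and 24%, 21% and 97% of genes changed by 2. There, 100 genes were changed by each amount, none of low mean level, with noise independent between genes. In the real LCM_GFP comparisons 32.1% and 31.4% of genes were called, so these rates need not hold for the real data.

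The 7 genes and 14 further lists (6 of pathways, 8 of cell markers) were chosen from general knowledge with earlier results of these data known. Named from each pathway list are the called gene with the largest change each way in LCM_GFP against FACS_GFP with mean FPKM of at least 5 in its higher group, the most abundant gene, and genes picked by role, from each marker list the most abundant gene, and the 3 genes nearest each of the 7. Of the genes this rule names, 2 are not reported here. Insig1, Foxj1 and the genes Hbb-y, Mki67, Kdm5d, Uty, Ddx3y and Xist were chosen after their values were seen. Other genes are named only as members of a count of calls. Promoter windows are RefSeq's for GRCm38.p6, while expression coordinates are mm9, and the builds were not mixed.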

Additional observations from a re-analysis of the deposited data

How the results depend on the processing

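The calls of Apod, Clu, Ptgds and Abca1 held under every alternative in which each was tested. Over these, the change of Abca1 ranged from -3.02 to -2.28 against FACS_GFP and from -3.12 to -2.29 against FACS_WT. With LCM_GFP 2 and 4 alone against FACS_GFP, Apod, Clu and Ptgds missed the filter, 1 of the 7 genes was called higher (Apoe) and 2 lower. With the filter in at least 2 libraries, chosen after seeing the data, 4 were called higher and 2 lower, and 6974 genes in all, against 4305 in the main fit. Fitting all 3 groups together gave 2 called lower against FACS_GFP, and leaving out 1 library gave 1 to 2. All genes called there numbered 1042 to 5434 when 1 library was left out, with 1058, 1087 and 1042 without FACS_GFP 1, 2 and 3, and the cause was not tested. Against FACS_WT, 1 of the 7 was called lower with no filter, median ratio scaling, quantile normalization, no trend or robust moderation, the replicate block or sex as covariate, and 1 to 2 when 1 library was left out. All genes called there numbered 1760 with sex as covariate, which rests on LCM_GFP 2 as the male, 6668 with LCM_GFP 2 and 4 alone and the filter in at least 2 libraries, and 1089 to 5257 when 1 library was left out (1089, 1160 and 1099 without FACS_WT 1, 2 and 3). Between the sorted groups, 7 genes were called with no filter, 3 with all 3 groups in 1 fit, and 4 to 15 when 1 library was left out (7 without FACS_WT 1 and 4 without FACS_WT 2).

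Apoe changed sign against FACS_GFP under the replicate block (-0.10), without LCM_GFP 2 (-0.35), LCM_GFP 4 (-0.10) or FACS_GFP 1 (-0.01), with a range of -0.35 to 0.73 when 1 library was left out. Against FACS_WT it changed sign with median ratio scaling (0.056), sex as covariate (0.78), LCM_GFP 2 and 4 alone (0.40 with either filter) and without LCM_GFP 1 (0.17), with a range of -0.91 to 0.17 when 1 library was left out. Between the sorted groups, Abca1 changed sign without FACS_WT 3 (0.00937, and -0.23 to 0.00937 over the libraries left out) and Abcg1 with sex as covariate (0.046). The call of Lrp1 against FACS_WT ended under 11 of 19 alternatives, and Lrp1 gained a call against FACS_GFP under 5 of 19. Replicate numbers are shared between groups, but the deviations of libraries with the same number correlated at -0.0401 to 0.214, and not above 0.1 in every pair. Between the sorted groups they correlated at 0.141, 0.0102 and 0.214 for replicates 1 to 3. Whether the numbers pair libraries is not known, and the main fits did not pair them. The replicate block, which drops LCM_GFP 4, ended the call of Lrp1 against FACS_WT (adjusted p = 0.0656 in limma) and moved the calls over all genes to 3536, 3422 and 19. Depth is not known, so values under 1 FPKM are imprecise to an unknown degree.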
